A study of Arabidopsis thaliana with 23 samples.

Results

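Glutathione transferases of the tau class (GSTU) and the phi-class member ATGSTF13 were followed on arrays of Arabidopsis root cells. The members are the probe sets whose single annotated gene symbol is GSTU followed by a number, which were 11, and the 1 probe set of ATGSTF13, so 12 of the 22810 probe sets on the array. A probe set was tested where 2 or more arrays read it above their 40th percentile. This kept 9 of the 12 members (GSTU16, GSTU18, GSTU20, GSTU22, GSTU25, GSTU26, GSTU27, GSTU28 and ATGSTF13) among 15983 tested probe sets. ATGSTF13 was added with its time-course values already known, so its time-course p-values are a description. All members and the further gene lists were chosen with earlier results of these data known. The p-values of the other comparisons, adjusted over all tested probe sets, therefore also describe the values and do not test a choice made beforehand.

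Glutathione transferases join the tripeptide glutathione to reactive, electrophilic compounds, which marks these for storage in the vacuole or for breakdown. The tau and phi classes are the large plant classes, known for detoxifying herbicides and for transcripts that respond to chemical stress, and many tau genes stand in tandem arrays of close copies. Glutathione reductase returns oxidised glutathione to its reduced form, and glycosyltransferases and alkenal reductase act on other reactive or foreign compounds. In the root, the ground tissue comprises cortex and endodermis, which arise from the cortex/endodermis initial (CEI) and its daughter.

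All plants were of the Columbia ecotype, and their roots were 5 days old. A pair of transgenic lines carried a Dex-inducible form of SHORT-ROOT (SHR) or SCARECROW (SCR), transcription factors that pattern the ground tissue, together with the J0571 enhancer trap by which ground tissue cells were sorted. Each line was measured at 0, 1, 3, 6 and 12 h after transfer to medium with 1 micromolar Dex, on 2 arrays per time point and thus 10 arrays per line. The remaining 3 arrays were of CEI cells, sorted by GFP under the CYCD6 promoter from seedlings kept on standard medium without Dex. The labels give no mock transfer, so hours on Dex and hours since transfer cannot be told apart. They name neither the promoter driving the inducible proteins nor whether each line was 1 clone. Although the source names say sorted cells, the protocol text of the same samples describes cut roots, and the values do not settle which is right.

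Signals are on the linear MAS5 scale, on which every array has the same trimmed mean. Median signal per array ran from 62.9 to 79.9. The 2 SCR arrays at 6 h lie apart from each other (r = 0.862 over probe sets). Spiked-in dap control probe sets, which hold no plant RNA, averaged 76.8 to 609 on the 10 SHR arrays and 2.38 to 8.53 on the other 13, so that the line and whatever set this control apart cannot be told apart. Of the cell type markers, the annotation named both cortex genes, 3 of 8 endodermis genes and 1 of 6 epidermis genes, but 0 of 8 stele and 0 of 4 root cap genes. SHR, SCR and CYCD6 were not among the named genes and did not serve as a check of the labels.

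In the TAIR10.1 gene order, 10 members lie on chromosome 1, while GSTU27 and ATGSTF13 lie on chromosome 3. GSTU25 and GSTU26 are next to each other. GSTU23, GSTU22, GSTU21 and GSTU20 follow one another in that order with 0 protein-coding genes between them, and 3 genes stand between GSTU15 and GSTU16. All 12 probe sets carry the plain suffix _at and 0 carry the suffixes for shared probes. Whether a probe set also bound RNA of a close copy was not tested.

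**Figure D1:**
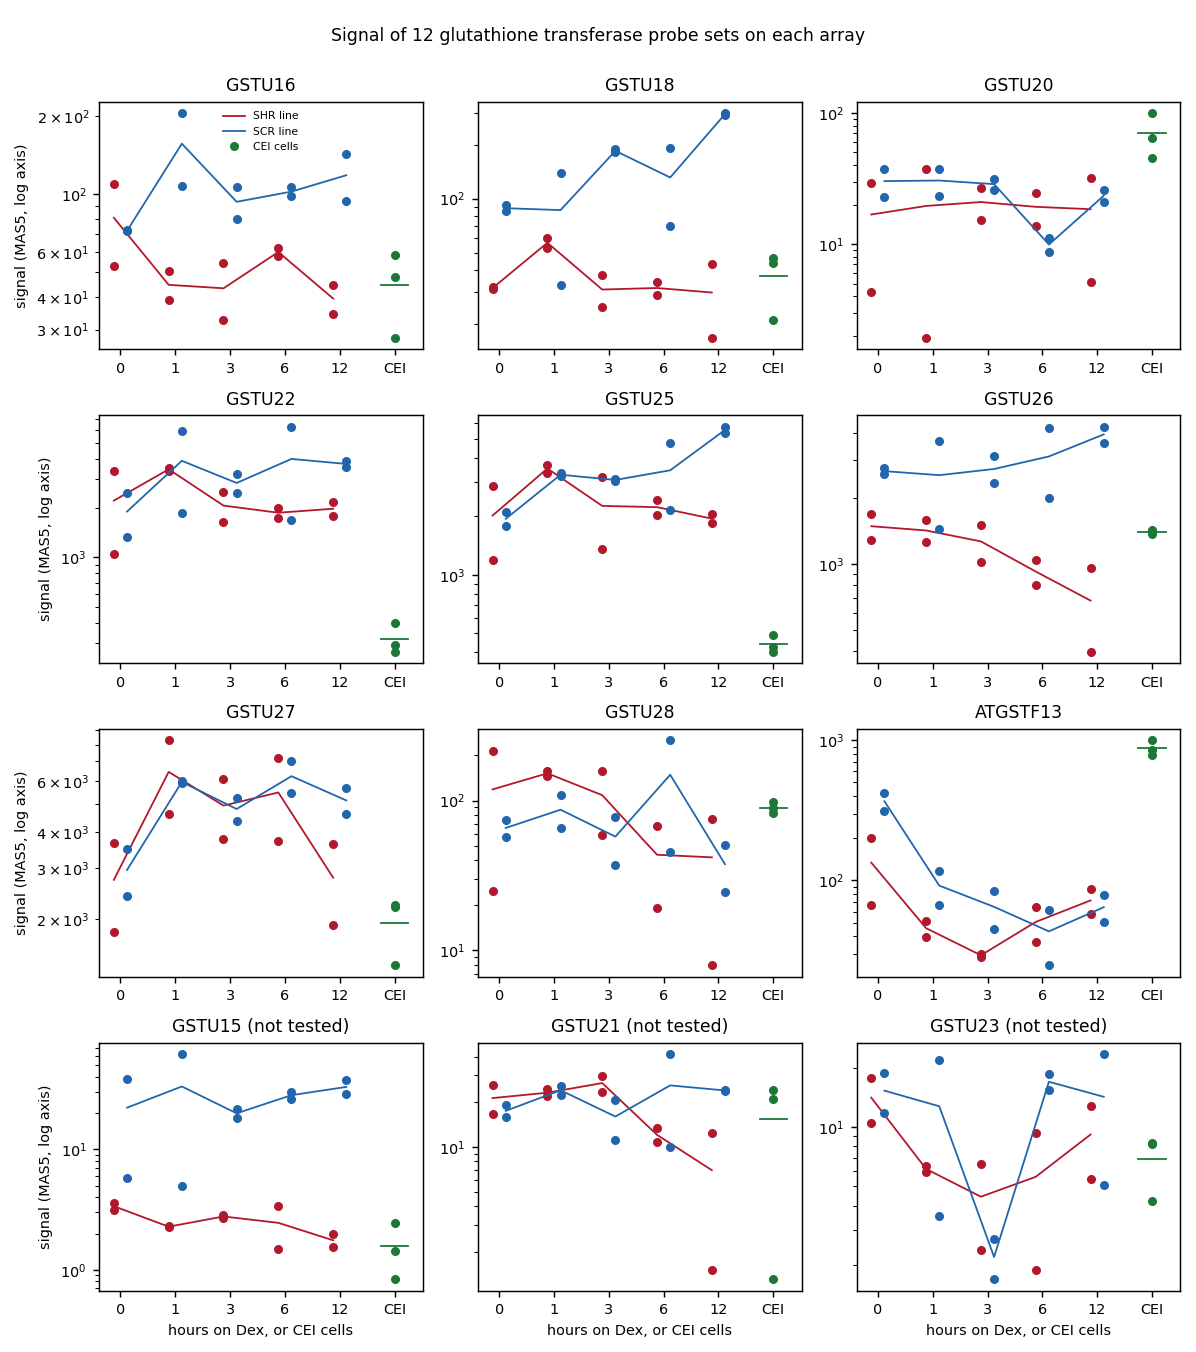
Signal (MAS5, log axis) of the 12 probe sets on each of the 23 arrays, by hours on Dex in the SHR line (red) and the SCR line (blue), and in CEI cells (green); points are arrays, and lines or short bars are group means. GSTU18 and GSTU26 are lower in the SHR line at 12 h, GSTU22 and GSTU25 are low in CEI cells, and ATGSTF13 is high in CEI cells, at 784 to 997.

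The first question was how the lines differ. GSTU18 and GSTU26 had lower signal in the SHR line than in the SCR line at 12 h, 8.12-fold and 6.22-fold on the scale of log2(signal + 10), and GSTU25 and GSTU16 were lower by 2.85-fold and 2.56-fold. These 4 of the 9 tested members passed at 12 h (adjusted p under 0.05), all lower in the SHR line, where 13.2% of all tested probe sets passed and 7.38% passed as lower. On SHR replicate 2 at 12 h, GSTU18 and GSTU16 lay below the 40th percentile of that array (43.2), so their folds include a dim signal. All 8 tested GSTU members lay below 0, with a median log2 difference of −1.15, whereas the median over all tested probe sets was 0.18. Of 28 listed tau-class genes, 11 were named and these 8 tested, so most of the class was not seen. ATGSTF13 differed by 0.14 ± 0.45 (SE; 95% interval −0.81 to 1.10).

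GSTU18 read 43.1 and 16.7 on the SHR arrays at 12 h and 301 and 291 on the SCR arrays. The SHR value of 43.1 lay above the 40th percentile of its array (32.0), and that of 16.7 below its own (43.2). The size of the GSTU18 difference thus rests partly on a dim signal. The log2 difference of GSTU18 was −3.02 ± 0.50 (SE, n = 2 and 2; adjusted p = 0.0015). GSTU26 read 398 and 965 against 3593 and 4260, a log2 difference of −2.64 ± 0.43 (adjusted p = 0.0014). In both genes the groups were far apart, and the gap exceeded the spread within either pair. GSTU25, whose enzyme is known to conjugate the explosive TNT, gave 2041 and 1844 against 5331 and 5766 (−1.51 ± 0.41, adjusted p = 0.024). GSTU16 gave 44.7 and 34.4 against 94.4 and 143 (−1.36 ± 0.38, adjusted p = 0.028). These smaller differences also came without overlap, yet both calls were lost when any 1 of the 4 arrays at 12 h was left out, with adjusted p of 0.087 to 0.133 for GSTU25 and 0.057 to 0.196 for GSTU16.

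The other members did not pass at 12 h in the main fit, which takes no account of replicate numbers. With these numbers as blocks in each line, GSTU27 passed as well (adjusted p = 0.009), where 24.5% of all tested probe sets did. GSTU27 read 3640 and 1912 against 5647 and 4615 (−0.95 ± 0.42, adjusted p = 0.13), and GSTU22 read 2180 and 1788 against 3878 and 3569 (−0.91 ± 0.59, adjusted p = 0.289). Neither pair of groups overlapped, and with them 6 members had every SHR array below every SCR array, where 25.5% of all tested probe sets did. GSTU20 (−0.40, 95% interval −1.71 to 0.90) and GSTU28 (−0.23, −2.00 to 1.55) overlapped, and their intervals leave room for sizeable differences either way.

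Before 12 h, 0 of the 9 members passed between the lines in the main fit. Of all tested probe sets, 0.00626%, 0.138%, 0.144% and 0.325% passed at 0, 1, 3 and 6 h, in that order. GSTU18 already read 31.2 and 32.2 in the SHR line at 0 h against 91.5 and 85.3 in the SCR line, a log2 difference of −1.24 ± 0.50 (adjusted p = 0.733). Each SHR signal of GSTU18 at 0, 3 and 6 h lay below the 40th percentile of its array. The arrays did not overlap at 0 h, nor at 3 h (−2.26 ± 0.50, adjusted p = 0.07) or 6 h (−1.61 ± 0.50, adjusted p = 0.153). GSTU26 likewise read 1293 and 1691 against 2743 and 2590 at 0 h (−0.85 ± 0.43, adjusted p = 0.866). GSTU16, by contrast, read 110 and 52.7 against 71.9 and 72.5 at 0 h, where the groups overlapped, and was apart from 1 h on. Such separation was common. At 0, 1, 3 and 6 h, 17.3%, 21.2%, 16.7% and 17.5% of all tested probe sets were lower in the SHR line without overlap.

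Averaged over the 5 times, GSTU18, GSTU26, GSTU16 and ATGSTF13 were lower in the SHR line. That is 4 of 9 members where 22.6% of all tested probe sets passed and 10.3% passed as lower. The log2 differences were −1.68 ± 0.22 for GSTU18 (adjusted p = 8.7e-05), −1.39 ± 0.19 for GSTU26 (adjusted p = 0.00013) and −0.90 ± 0.17 for GSTU16 (adjusted p = 0.0014). Single arrays kept the lines from separating fully. In the SCR line at 1 h, replicate 2 read 33.1 for GSTU18 and 1454 for GSTU26, where the other 9 SCR arrays read at least 70.1 and 2013. For GSTU16 it was replicate 1 of the SHR line at 0 h, at 110. Without the 12 h arrays the 3 differences were −1.34, −1.08 and −0.78, and all passed (adjusted p = 0.0053, 0.005 and 0.023).

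ATGSTF13 passed narrowly in this mean (−0.58 ± 0.20, adjusted p = 0.0495), and the call held in 5 of the 23 fits that left out 1 array. By time it ran from −1.55 at 0 h to 0.24 at 6 h. It read 201 and 66.5 in the SHR line at 0 h against 315 and 419 in the SCR line, but 57.4 and 86.5 against 78.6 and 50.2 at 12 h. Without the 0 h arrays it was −0.33 (adjusted p = 0.242). GSTU25 stood on the other side of the threshold (−0.51 ± 0.18, adjusted p = 0.0501). GSTU20, GSTU22, GSTU27 and GSTU28 ran from −0.42 to 0.04 and did not pass.

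**Figure D2:**
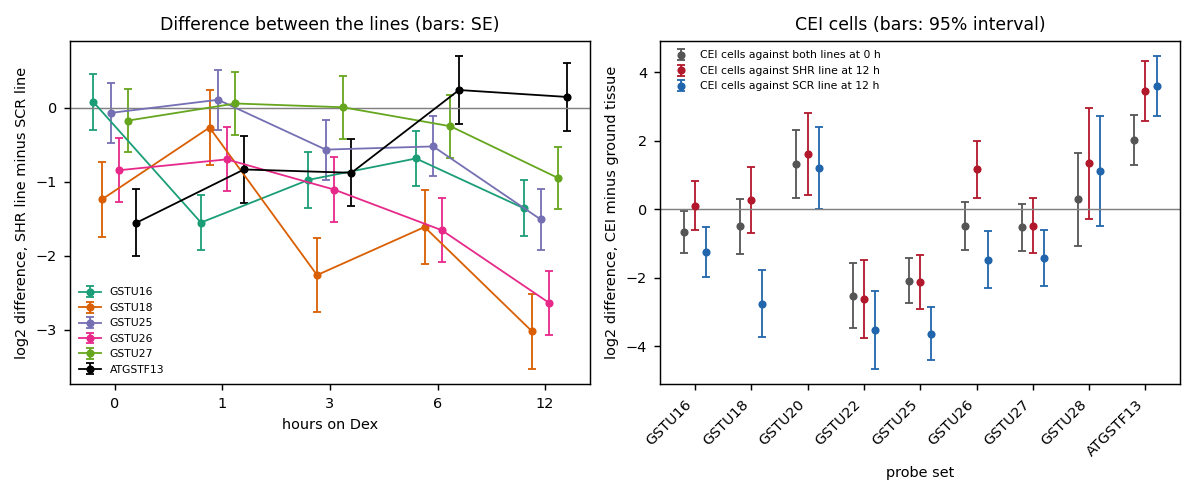
Left, log2 difference of (signal + 10), SHR line minus SCR line, by hours on Dex for 6 probe sets, with bars of 1 standard error; right, CEI cells minus 3 sets of ground tissue arrays for 9 probe sets, with 95% intervals. GSTU18 runs from −1.24 at 0 h to −3.02 at 12 h, and ATGSTF13 is above 0 in all 3 CEI comparisons.

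GSTU15, which lies close to GSTU16, was too dim to be tested, with 1 array above the 40th percentile. It read 1.50 to 3.60 on the 10 SHR arrays (median 2.50), 5.01 to 61.7 on the 10 SCR arrays (median 27.5), and 1.44, 2.43 and 0.834 in CEI cells. Every SCR array lay above every SHR and CEI array, although all but 1 of these signals lay at or below the 40th percentile of their array. In a fit with no filter on low signals its mean line difference was −1.44 ± 0.24 (adjusted p = 0.00066), where 14.2% of all probe sets passed. GSTU21 read 1.31 to 41.5 and GSTU23 read 1.69 to 23.4 over all arrays, and both were left untested.

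Further genes came from lists of glutathione transferases of other classes, glutathione enzymes and detoxification enzymes. These lists were chosen with earlier results of these data known. Besides the members, the annotation named tested genes for 1 of 12, 2 of 16 and 3 of 18 in that order. Most listed genes were thus not seen. Of the 6 tested, 5 were lower in the SHR line at 12 h and 0 higher, beside the 7.38% of all tested probe sets that passed as lower. AER, alkenal reductase, read 35.2 to 128 on the SHR arrays (median 69.9) and 110 to 992 on the SCR arrays (median 248). Its 12 h log2 difference was −4.08 ± 0.53 (adjusted p = 0.00032). The glycosyltransferases UGT73B5 (−1.73 ± 0.51, adjusted p = 0.034) and UGT73B4 (−1.26 ± 0.34, adjusted p = 0.026), the lambda-class transferase GSTL3 (−1.18 ± 0.38, adjusted p = 0.049) and glutathione reductase GR1 (−0.91 ± 0.28, adjusted p = 0.04) were lower as well. The organellar reductase GR gave 0.15 ± 0.25 and did not pass. Phi-class GSTF4 stayed at 0.753 to 30.8 and was not tested.

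Marker genes also moved with the line. Over the 5 times the endodermis genes GSO1 (−0.85 ± 0.23, adjusted p = 0.014) and AT1G61590 (−1.17 ± 0.31, adjusted p = 0.012) were lower in the SHR line, 2 of the 3 named endodermis markers. The remaining one, AT4G28100, lay the other way and did not pass over the 5 times (0.41 ± 0.19, adjusted p = 0.134). It gave 1.31 ± 0.43 at 12 h (adjusted p = 0.054), with 516 to 567 on the SHR arrays and 196 to 231 on the SCR arrays. The summed signal of these 3 ran from 350 to 1313 on the SHR arrays and from 956 to 2338 on the SCR arrays. The cortex markers did not pass, with sums of 477 to 2167 and 723 to 2064. The part of these markers in the line differences was not tested. In such bulk samples, fewer cells of a type and less RNA per cell cannot be told apart.

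The time course asked what followed the transfer to Dex. In neither line did any of the 9 members pass at any time against 0 h in the main fit. Among all tested probe sets, 0%, 0%, 0.0125% and 0% passed in the SHR line at 1, 3, 6 and 12 h, and 0%, 0%, 0% and 0.00626% at those times in the SCR line. Tests over the whole course passed for 0 members, beside 0.0188% (SHR) and 0% (SCR) of all probe sets. At an unadjusted p under 0.05, 3, 2, 2 and 2 of the 9 members passed in the SHR line at those 4 times, where 15.9%, 2.75%, 3.18% and 8.8% of all tested probe sets did. In the SCR line 3, 1, 2 and 3 members passed, beside 7.39%, 1.81%, 5.26% and 7.73%. All comparisons of a line share its 2 arrays at 0 h. With replicate numbers as blocks, GSTU27 passed in the SHR line at 1 h (adjusted p = 0.016), where 2.08% of all tested probe sets did. ATGSTF13 passed in the SCR line at 6 h (adjusted p = 0.021), where 0.025% did. Over the SHR course 1 member passed, where 7.85% did.

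**Figure D3:**
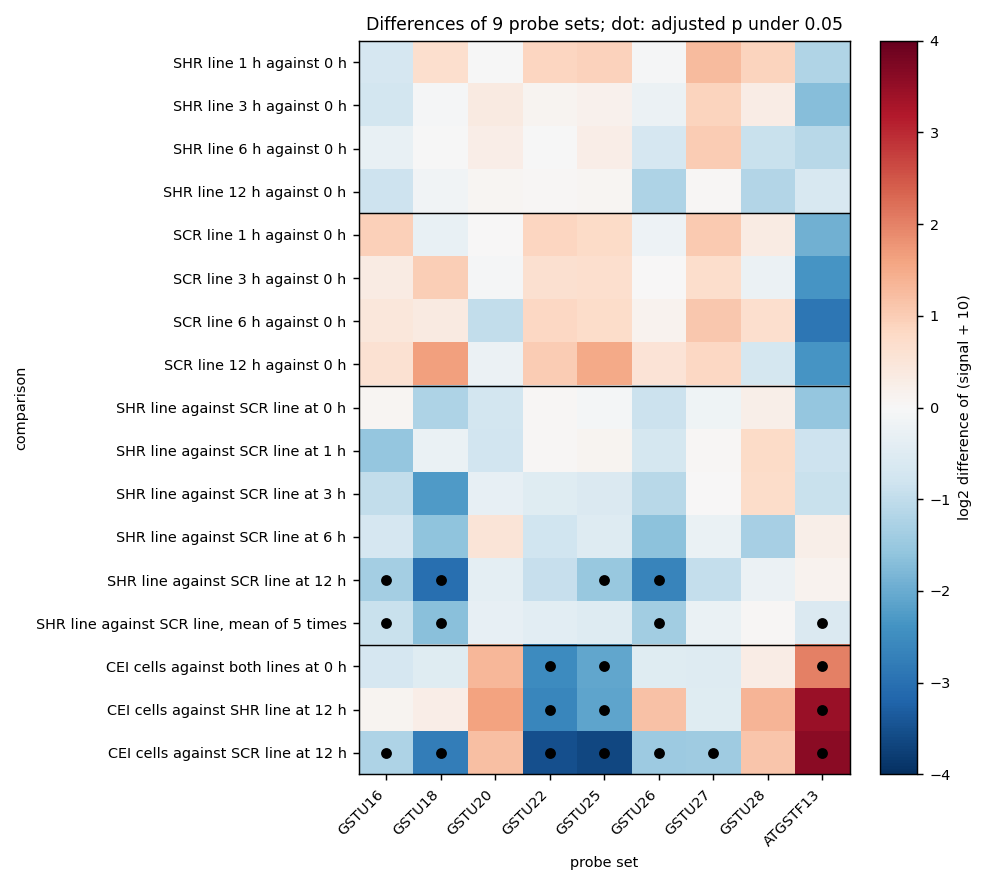
Log2 differences of (signal + 10) for the 9 tested probe sets (columns) in 17 comparisons (rows), red for higher and blue for lower in the first-named group; a dot marks an adjusted p under 0.05. Dots are absent from the 8 time-course comparisons, and 4 lie on the 12 h comparison of the lines, on GSTU16, GSTU18, GSTU25 and GSTU26.

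ATGSTF13 came nearest. In the SCR line it read 315 and 419 at 0 h, 66.6 and 117 at 1 h, 45.2 and 84.4 at 3 h, 24.7 and 61.9 at 6 h, and 78.6 and 50.2 at 12 h. All 8 later arrays lay below both arrays at 0 h. The 6 h difference was −2.90 ± 0.45 (adjusted p = 0.0503), and those at 1, 3 and 12 h were −1.92, −2.37 and −2.35 (adjusted p = 0.273, 0.529 and 0.234). In the SHR line it read 201 and 66.5 at 0 h, and 28.6 to 64.7 on the 6 arrays from 1 to 6 h. Those 6 arrays were below both at 0 h, though the arrays at 12 h, 57.4 and 86.5, overlapped them. No overlap, lower in both lines, was met by 16.5% of all tested probe sets at 1 h, 2.67% at 3 h and 1.92% at 6 h.

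A comparison of both lines jointly with their 0 h arrays was added after the data were seen. ATGSTF13 was chosen with its time-course values known. Its p-values here describe the values and are not a test. In it ATGSTF13 was lower at 3 h (−2.03 ± 0.32, adjusted p = 0.043). The 6 h value was −2.01 ± 0.32 (adjusted p = 0.027). It was the 1 member to pass, where 0.0188% and 0.0626% of all probe sets did; at 1 and 12 h 0% and 0.0438% passed, and 0 members. At 1 h the outcome turned on the SCR arrays at 6 h, which lie outside that comparison: without both, ATGSTF13 (−1.56, adjusted p = 0.017), GSTU27 (1.15, adjusted p = 0.032) and GSTU25 (0.84, adjusted p = 0.049) passed, where 8.32% of all tested probe sets did. The ATGSTF13 calls at 3 and 6 h depended on single arrays: the 3 h call held in 9 and the 6 h call in 15 of the 23 fits without 1 array, and neither held with only the arrays of the comparison (adjusted p = 0.309 and 1.00). The cortex marker AT1G62500 was lower at 6 h in the same comparison (−3.40 ± 0.46, adjusted p = 0.0085), while the other cortex marker, AT1G09750, gave 0.32 ± 0.57 and did not pass (adjusted p = 1.00). The part of these markers in the result was not tested.

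Among the GSTU members, GSTU27 and GSTU25 were higher than at 0 h in both lines at 1 h, without overlap, as were 6.44% of all tested probe sets; neither passed. GSTU27 read 3656 and 1801 in the SHR line at 0 h and 8267 and 4613 at 1 h, and 3500 and 2404 in the SCR line at 0 h and 5896 and 5991 at 1 h. Its log2 differences were 1.26 ± 0.42 (adjusted p = 0.263) and 1.03 ± 0.42 (adjusted p = 0.628). Those of GSTU25 were 0.93 ± 0.41 and 0.75 ± 0.41. In the SCR line at 12 h, GSTU18 stood 1.64 ± 0.50 above 0 h (adjusted p = 0.532) and GSTU25 1.52 ± 0.41 (adjusted p = 0.448), while in the SHR line they differed by −0.15 and 0.08.

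Whether the lines differed in their changes was tested by interaction terms, which passed for 0 of 9 members at 1, 3, 6 and 12 h and over the whole course, as for 0% of all tested probe sets each time. At 12 h, 5 members had an unadjusted p under 0.05: GSTU16 (−1.43), GSTU18 (−1.78), GSTU25 (−1.44), GSTU26 (−1.79) and ATGSTF13 (1.70). Of all tested probe sets, 12.2% did. GSTU16 and GSTU26 were lower than at 0 h in the SHR line and higher in the SCR line with no overlap of arrays, as were 6.14% of all probe sets; at 1 h GSTU16 showed the same, as did 1.59%. For GSTU16, GSTU18, GSTU25 and GSTU26 the lines thus differed in level at 12 h, and the test of the difference in change did not pass.

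CEI cells were compared with ground tissue at 0 h, and with each line at 12 h. The 3 comparisons share the CEI arrays. Since the members were chosen with earlier results of these data known, the p-values here describe the values. ATGSTF13 was 4.05-fold higher in CEI cells than in both lines at 0 h, and GSTU22 and GSTU25 were 5.76-fold and 4.23-fold lower. These were 3 of 9 members, where 20.3% of all tested probe sets passed. Against the SHR line at 12 h the same 3 members passed, where 3.46% did. Against the SCR line at 12 h 7 of 9 passed, 6 of them lower, where 32.2% passed and 14.4% passed as lower.

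ATGSTF13 read 997, 784 and 851 in the 3 CEI samples, and 24.7 to 419 on the 20 ground tissue arrays (median 63.3). The CEI arrays lay above all others. The log2 difference was 2.02 ± 0.35 from both lines at 0 h (n = 3 and 4; adjusted p = 0.00087), 3.45 ± 0.41 from the SHR line at 12 h (adjusted p = 0.00023) and 3.60 ± 0.41 from the SCR line at 12 h (adjusted p = 1.9e-05). Against the SCR line at 0 h alone it was 1.24 and did not pass (adjusted p = 0.062). In the order of levels CEI cells came first (877 ± 109, SD, n = 3), the SCR line at 0 h next (367 ± 73.4, n = 2) and then the SHR line at 0 h (134 ± 95.4, n = 2). The first 2 steps had no overlap, whereas from the SHR line at 0 h down to the SHR line at 3 h (29.2 ± 0.952) each of the 9 groups overlapped with the next.

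GSTU22 read 292, 266 and 399 in CEI cells and 1056 to 6290 on the ground tissue arrays (median 2467). GSTU25 read 403, 490 and 425 against 1186 to 5766. Both had all CEI arrays below all 20 others, as 6.13% of all tested probe sets had. From both lines at 0 h the differences were −2.53 ± 0.45 for GSTU22 (adjusted p = 0.0011) and −2.08 ± 0.31 for GSTU25 (adjusted p = 0.00029). From the SCR line at 12 h they were −3.52 ± 0.54 and −3.63 ± 0.37, and from the SHR line at 12 h −2.61 ± 0.54 and −2.12 ± 0.37. The last GSTU22 call was lost without either SHR array at 12 h (adjusted p = 0.1 and 0.077).

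GSTU20, known from Arabidopsis as a partner of the jasmonate-conjugating enzyme JAR1, went the other way. It read 100, 64.5 and 45.7 in CEI cells and 1.93 to 37.7 on the ground tissue arrays. The groups did not overlap, as for ATGSTF13 and 7.38% of all tested probe sets. Its differences of 1.33 ± 0.47, 1.61 ± 0.56 and 1.21 ± 0.56 did not pass (adjusted p = 0.055, 0.139 and 0.108). The estimates of GSTU20 differed in sign from those of GSTU22, of the same run of neighbouring genes, but none of those of GSTU20 passed.

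GSTU26 read 1413, 1377 and 1439 in CEI cells. These values lie within the 398 to 1691 of the SHR line and below all 10 SCR arrays, at 1454 to 4260. CEI cells differed from both lines at 0 h by −0.49 ± 0.33 (adjusted p = 0.307), from the SCR line at 12 h by −1.47 ± 0.40 (adjusted p = 0.011) and from the SHR line at 12 h by 1.17 ± 0.40 (adjusted p = 0.125). The neighbouring genes GSTU25 and GSTU26 thus gave −2.08 and −0.49 against 0 h. GSTU18 read 46.4, 43.6 and 21 in CEI cells and GSTU16 read 47.9, 58.3 and 27.9. Both overlapped the SHR line at 12 h and lay below the SCR line at 12 h, by −2.75 ± 0.46 (adjusted p = 0.00041) and −1.25 ± 0.34 (adjusted p = 0.012). GSTU27 read 2235, 1381 and 2193 and was lower than the SCR line at 12 h (−1.43 ± 0.39, adjusted p = 0.011), and gave −0.53 ± 0.32 and −0.48 ± 0.39 against the other sets (adjusted p = 0.259 and 0.608). GSTU28 read 82.3 to 97.7 and did not pass in any of the 3 comparisons. Leaving out 1 of the SCR arrays at 12 h ended the calls of GSTU16 (without replicate 2, adjusted p = 0.14), GSTU26 (without replicate 2, 0.092) and GSTU27 (without replicate 1, 0.088).

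Of the 6 tested genes of the glutathione and detoxification lists, 2 were lower in CEI cells than in both lines at 0 h. None was higher, and 10.7% of all tested probe sets passed as lower. GSTL3 read 64.1 to 96.3 in CEI cells and 88.9 to 340 and 164 to 281 in the SHR and SCR lines (−1.10 ± 0.29, adjusted p = 0.014), and AER gave −1.21 ± 0.40 (adjusted p = 0.042). From the SCR line at 12 h, 5 of the 6 were lower, where 14.4% of all probe sets were, AER by the most (−4.21 ± 0.48, adjusted p = 1.7e-05). Both cortex markers were lower in CEI cells than at 0 h, AT1G62500 by −1.53 ± 0.50 and AT1G09750 by −1.83 ± 0.61 (adjusted p = 0.04 and 0.043), and their summed signal was 345 to 592 in CEI cells against 477 to 2167 and 1483 to 2064 in the SHR and SCR lines at 0 h. Of the 3 endodermis genes, AT4G28100 was higher (1.16 ± 0.33, adjusted p = 0.021), whereas GSO1 (−0.19 ± 0.39, adjusted p = 0.761) and AT1G61590 (0.74 ± 0.53, adjusted p = 0.336) did not pass. AGL42, a gene of the stem cell niche, read 44.3 to 68.5 in CEI cells and 1.88 to 55.4 on ground tissue arrays, and the epidermis gene EXPA7 84.5 to 206 and 11.6 to 248. The part of these markers in the CEI differences was not tested.

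**Figure D4:**
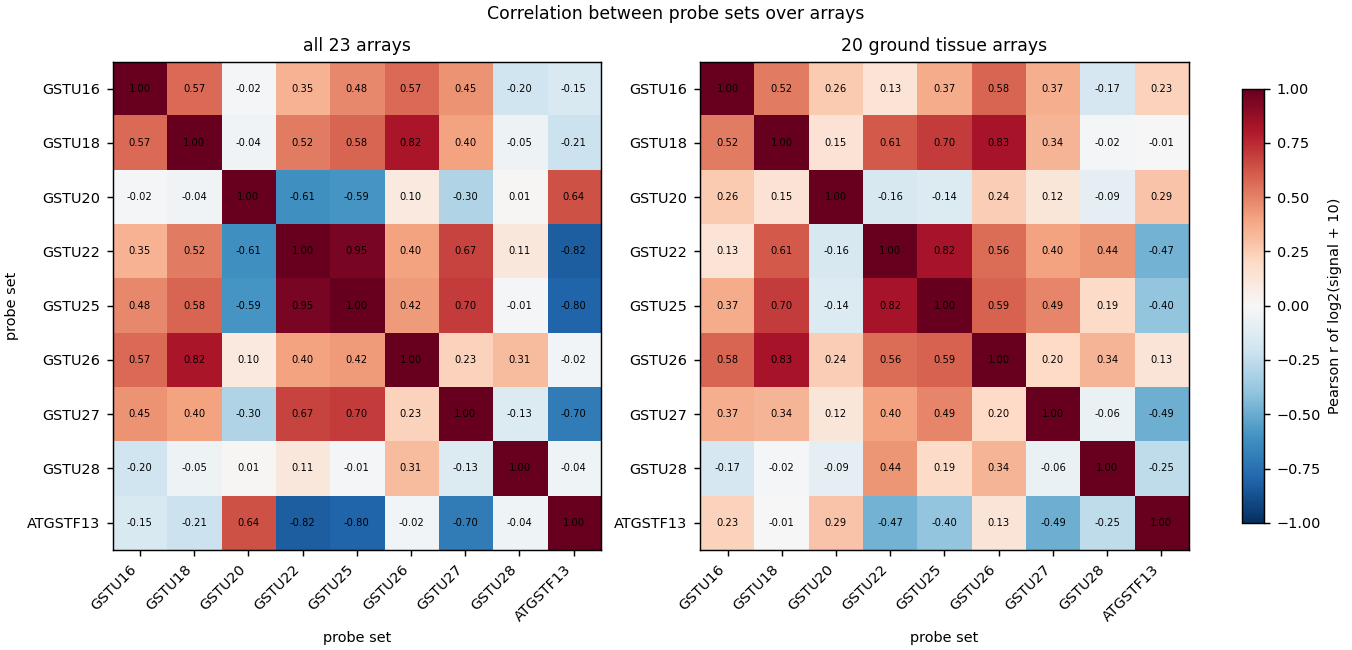
Pearson correlation of log2(signal + 10) between the 9 tested probe sets, over all 23 arrays (left) and over the 20 ground tissue arrays (right). GSTU22 and GSTU25 correlate at 0.95 and 0.82, and ATGSTF13 is at −0.82 and −0.47 with GSTU22.

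Some pairs of members also varied together from array to array, which is given as a description, since arrays of a group share their condition. GSTU22 and GSTU25, which are not neighbours, correlated at r = 0.95 over 23 arrays and 0.82 over the 20 ground tissue arrays, with 0.93 within the SHR line and 0.72 within the SCR line (10 arrays each). GSTU18 and GSTU26 reached 0.83 over the ground tissue arrays, but 0.14 within the SHR line and 0.85 within the SCR line. The neighbours GSTU25 and GSTU26 gave 0.59. Of the 36 pairs, 25 were above 0 over the ground tissue arrays, with a median of 0.24. ATGSTF13 was below 0 with 5 of the 8 GSTU members there, between −0.49 and 0.29.

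By their means in the 11 groups, the probe sets most like ATGSTF13 were AT1G27435 (r = 0.90), AT3G59000 (r = 0.90) and AT3G25120 (r = 0.89) of 8849 with 1 named gene. AT1G27435 averaged 2193 in CEI cells, 842 and 1264 in the SHR and SCR lines at 0 h and 980 and 921 at 12 h. Most like the mean of the 8 tested GSTU members were AT3G51130, AT1G71950 and AT3G28940 (r = 0.99, 0.99 and 0.98). AT1G71950 averaged 175 in CEI cells, 372 and 544 in the SHR and SCR lines at 0 h, and 191 and 1269 at 12 h, so it too was high in the SCR line at 12 h. These are the highest correlations among all those probe sets, over 11 points, and carry no test.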

How the data were processed

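RNA of 23 samples was measured on Affymetrix ATH1 arrays after amplification in 2 cycles. The deposited values are linear signal intensities made by the authors with MAS5, per the submitters' processing notes, with no version and no detection calls given in the sources used here. Trimmed means were 250 on all arrays. Scaling to one mean hides shifts shared by all genes. No array was identical to another, and 0 columns were left out.

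A pseudocount of 10 was added and log2 taken, so differences of dim probe sets are understated. The 64 controls were kept out. Low signals were filtered as stated in the report. In R 4.3.3, limma 3.58.1 fitted the 11 group means (lmFit, then eBayes with a trend; 12 residual degrees of freedom) and gave two-sided p-values, Benjamini-Hochberg adjusted over 15983 probe sets at 0.05. The fit was tested on simulated data. Median standard errors were 0.38 for a time against 0 h, 0.17 for the mean line difference and 0.29 for CEI cells against both lines at 0 h. The number of arrays limits the precision. The labels call the replicates biological. Mean line differences count all arrays of a line as independent.

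Named genes were every member, from each further list up to 4 genes with the smallest adjusted p under 0.05, and the 3 probe sets most correlated with ATGSTF13 and with the GSTU mean; GR and GSTF4 were named outside this rule, after their values were seen. Members and lists were chosen with earlier results of these data known. The TGA regulator list had 0 of 9 genes named. The supplied annotation gave 1 gene symbol for 13513 probe sets, several for 503 and none for 8794. All 12 members matched the RefSeq gene table (TAIR10.1) for gene order. The alternatives were pseudocounts of 1 and 50, no filter and a stricter one (4 arrays), quantile normalization, no trend, only the arrays of a comparison, replicate blocks, and each array left out.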

Additional observations from a re-analysis of the deposited data

Results flagged for a closer look

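GSTU16 and GSTU26 were singled out because, at the times named here, both SHR arrays lay below the SHR arrays at 0 h and both SCR arrays above the SCR arrays at 0 h. The SHR change minus the SCR change of GSTU16 was −1.63 at 1 h (−0.67 in the SHR line, 0.96 in the SCR line; interaction adjusted p = 1.00) and −1.43 at 12 h (−0.81 and 0.62; adjusted p = 0.367). That of GSTU26 was −1.79 at 12 h (−1.24 and 0.55; adjusted p = 0.365). With 2 arrays per group none of these interactions passed, and the same pattern occurred in 1.59% of all tested probe sets at 1 h and 6.14% at 12 h. Within-group spread could not be screened for outlying arrays, since no group has 4 or more.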

How the results depend on the processing

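Of 189 values of members, 21 were called, and over 703 alternatives 664 were still called, 39 were lost and 0 changed sign. The 168 others were called in 52 of 5534 alternatives, and 134 of those alternatives changed sign without a call. Quantile normalization moved the median of all genes by at most −0.075. Numbers of members called moved in several comparisons, and those given here are not all of them. For the SCR line at 12 h and between the lines at 1 and 3 h, no share over all probe sets is given in these settings. Counts there are not read as a result about the members. With a pseudocount of 50, 1 passed at 6 h of the SCR line, where 0.00626% of all tested probe sets did. In that setting 1 also passed at 12 h of the SCR line, and 1 between the lines at 3 h. GSTU25 then passed in the mean line difference (adjusted p = 0.0487), where 23.2% of all tested probe sets did. With quantile normalization, 1 passed in the SCR line at 6 h, where 0.0125% did. With only the arrays of the comparison, 3 passed in the SCR line at 12 h. GSTU22 then passed between the lines at 12 h (adjusted p = 0.026), where 23.2% did. In CEI cells against 0 h, GSTU20 passed with a pseudocount of 50 (adjusted p = 0.021) and quantile normalization (0.035). It also passed with no trend (0.048) and with only the arrays of the comparison (0.043). In these settings 19.7% to 22.6% of all tested probe sets passed. In the mean line difference ATGSTF13 was lost with a pseudocount of 1 (0.056) and no filter (0.073). Without both SCR arrays at 6 h, 1 passed between the lines at 3 h. The cause was not tested.

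The titles number the replicates of each time course, but name no shared batch. Same-numbered deviations correlated above 0.1 in 9 of 10 pairs of times in the SHR line and 8 of 10 in the SCR line (medians 0.39 and 0.24, lowest 0.05 and −0.22). Most pairs did, but the labels name no shared batch. Whether the numbers pair the samples was left undecided, and they entered only as an alternative. With the replicate block, 1 member passed in the SHR line at 1 h, 1 over its course, 1 in the SCR line at 6 h, and 1, 1 and 2 between the lines at 1, 3 and 6 h, and 5 in CEI cells against 0 h. At 12 h between the lines GSTU27 passed as well (−0.95, adjusted p = 0.009), where 24.5% of all tested probe sets did, and in both lines at 1 h ATGSTF13 (adjusted p = 0.016) and GSTU27 (0.0093), where 7% did, and GSTU27 at 6 h (0.0072). As a random block (correlation 0.20) 1 passed over the SHR course, 1 in the SCR line at 6 h, and ATGSTF13 and GSTU27 in both lines at 1 h (both 0.023, where 2.86% did); in the mean line difference GSTU16 (adjusted p = 0.023), GSTU18 (0.0028) and GSTU26 (0.0037) stayed and ATGSTF13 (0.231) was lost.

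Leaving out 1 array gave 0 to 1 members called in the SCR line at 6 h, over its course, in the 6 h interaction and between the lines at 1 h and at 3 h, 0 to 3 at 6 h, 2 to 4 at 12 h, 3 to 4 in the mean, and 3 to 4, 2 to 3 and 5 to 7 in CEI cells against 0 h, the SHR and the SCR line at 12 h. Without SCR replicate 2 at 6 h, the interaction of ATGSTF13 at 6 h passed (2.32, adjusted p = 0.042), where 8.27% of all probe sets did, and so did GSTU18, GSTU22 and GSTU26 between the lines at 6 h, where 22.7% did. The array left, SCR replicate 1 at 6 h, correlated less with the other arrays (mean r = 0.847) than replicate 2 did (0.930). A lone remaining array is assumed to vary like the other groups.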
